A study of Mus musculus with 4 samples.

Results

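Zfp503 and Zfp703 are the mouse members of the NET family of zinc finger proteins, transcriptional corepressors that carry a single C2H2 zinc finger and recruit Groucho/TLE proteins. Described here are the Meis and Prep ChIP-seq peaks in 2 intervals of the mm9 genome that hold these genes by the rule that chose them. One is 22500000 to 24100000 on chromosome 14 (Zfp503 and the neighbouring DNA, 1.6 Mb) and the other 27800000 to 28250000 on chromosome 8 (Zfp703, 0.45 Mb). A peak was a member when its centre lay inside. The intervals held 83 of the 9017 peaks of both lists: 50 Meis and 9 Prep peaks at Zfp503, and 17 Meis and 7 Prep peaks at Zfp703. The intervals were chosen from the positions and scores of these same peaks, so the counts, scores and densities below describe the members and were not tested.

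The study dissected trunks of wild-type C57BL/6 embryos at embryonic day 11.5 and precipitated their crosslinked chromatin. It used antibodies to Meis1/2 (K830, K844) in 1 library and to Prep1/2 (N15) in another, and each has 1 input library without antibody; no group carries a mutation or a treatment. Each of the 4 groups is 1 library, so no spread between embryos or repeats is available, and read depth is unknown. The trunk mixes many cell types, and a peak says nothing about which of them held the protein on the DNA. The score of a peak is the authors' value from their peak caller, without a stated scale, and is compared only within its own list. The place of a peak is 1 plus the number of peaks in its list with a higher score.

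Meis and Prep are TALE homeodomain proteins, and both bind DNA together with Pbx, a further TALE protein. In the embryo Meis proteins act beside Hox proteins in patterning the trunk and limbs, and Prep1 is broadly expressed. Zfp503, also called Nolz-1, is known from striatal and spinal motor neuron development. Zfp703, also called Zeppo1, is known as a repressor in mammary epithelium, and its human counterpart is amplified in luminal breast cancer. In the gene order of the RefSeq table for GRCm38.p6, Zfp503 is preceded by Vdac2, Comtd1 and A430057M04Rik and followed by A330001L22Rik, Gm41106 and Lrmda. The next protein-coding gene after Lrmda is Kcnma1. Zfp703 is preceded by Gm29728, Gm39150 and Gm45572, none of them protein-coding, and followed by Gm32389, Gm19164 and Erlin2. That table belongs to another build than the peaks, so no peak was assigned to a gene, intron or promoter, and peaks are named by position.

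The RefSeq promoter table for the same build held Zfp503 but not Zfp703. The Zfp503 promoter, on the minus strand of chromosome 14 from 21989552 to 21989851 in GRCm38.p6, is shown as the start of the one member gene in the table. The 50 bases after the annotated start are in capitals. No peak was placed on it, for the reason given above.
Zfp503 promoter: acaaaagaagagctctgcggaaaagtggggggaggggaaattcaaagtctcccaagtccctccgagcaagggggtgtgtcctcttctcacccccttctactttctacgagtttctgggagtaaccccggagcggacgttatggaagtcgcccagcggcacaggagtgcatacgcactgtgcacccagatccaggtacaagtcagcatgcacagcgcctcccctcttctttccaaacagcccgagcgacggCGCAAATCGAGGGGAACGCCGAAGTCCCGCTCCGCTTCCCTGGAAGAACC
Neither strand of these 300 bases contained TGACAG, the core of the Meis and Prep site, which 19.2% of the 32851 promoters in the table hold. The longer site, that core directly preceded by the Pbx half-site TGAT and found in 0.222% of promoters, could therefore not occur either. The Pbx-Hox sites TGATTTAT, TGATTGAT and TGATGGAT, held by 0.977%, 0.746% and 0.767% of promoters, were not in it either. The search says only that these letters are not in this window.

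Both loci were crowded with Meis peaks and held far fewer Prep peaks. Meis peaks numbered 31.3 per Mb at Zfp503 and 37.8 per Mb at Zfp703, against 2.23 per Mb over the span of all chromosomes, which is 14 and 17 times as many. Together the intervals make up 0.0803% of that span and hold 1.18% of the Meis list. Prep peaks numbered 5.63 per Mb at Zfp503 and 15.6 per Mb at Zfp703, against 1.30 per Mb over all chromosomes. That is 4.31 and 11.9 times as many, so Prep peaks were also denser here than in their whole list. There were 5.56 Meis peaks per Prep peak at Zfp503 and 2.43 at Zfp703, against 1.71 in the whole lists. The Zfp703 interval thus had a Meis density 1.21 times, and a Prep density 2.77 times, that of the Zfp503 interval. The exact interval of the Meis ratio, for counting error only, was 0.654 to 2.13. The Prep ratio rests on 7 against 9 peaks, and no such interval was computed for it. All these densities and ratios also depend on where the interval edges were set.

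Each chromosome was also divided into consecutive tiles as long as an interval. Among 1653 tiles of 1600 kb that did not touch the Zfp503 interval, the median held 3 Meis peaks and 0 held 50 or more. The fullest of these, with 36 Meis peaks, ran from 27200001 to 28800000 on chromosome 8 and contains the whole Zfp703 interval. Of 5852 tiles of 450 kb away from the Zfp703 interval, 2 held 17 Meis peaks or more. The fullest of them, from 51750001 to 52200000 on chromosome 6, held 26. The other held 17 and lies inside the Zfp503 interval. For Prep, 65 of 1655 long tiles held 9 peaks or more and 23 of 5859 short tiles held 7 or more. The tiles lie on a fixed grid, whereas the intervals were chosen from these same peaks. The tile counts therefore describe the intervals and test nothing.

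The interval edges meet the peaks differently at the paralogues. At Zfp503 the outermost Meis peaks inside lay 211 kb and 164 kb from the edges, with scores of 17.53 and 20.04. The nearest Meis peaks outside lay 180 kb to the left (score 8.61) and 243 kb to the right (score 13.4). The nearest Prep peak outside on the left, at 22319914 to 22320070, had a score of 198 and place 72, far above any Prep peak inside, and it overlapped that weak Meis peak. At Zfp703 the left edge cut through a dense stretch. The first Meis peak inside, with a score of 17.7, lay 0.455 kb from the edge, and the nearest Meis peak outside lay 11.7 kb from it with a score of 34.9 and place 56. On the right, the next Meis peak beyond the edge was 2312 kb away and the next Prep peak 6792 kb away.

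To see how far each crowd of peaks reaches, Meis peaks were chained wherever the gap between neighbouring centres was at most 150 kb. Of 1155 such stretches with at least 2 peaks, the 2 with most peaks were those of the paralogues. The Zfp503 stretch ran from 22711135 to 23935699 and took in 50 Meis peaks over 1225 kb, all inside the interval. The Zfp703 stretch ran from 27383872 to 28119834 and took in 36 Meis peaks over 736 kb, of which 19 lay left of the interval. The next stretch, on chromosome 6 from 51516707 to 52271797, held 32, and the median stretch of 2 or more held 2. With gaps of up to 100 kb the paralogue stretches held 44 and 36 peaks, with gaps of up to 200 kb they held 50 and 36, and they stood first and second each time. In the higher-scoring 50% of the list they held 30 and 31, and their place among all stretches was not determined there. Over the stretches the density was 40.8 Meis peaks per Mb at Zfp503 and 48.9 per Mb at Zfp703.

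**Figure D1:**
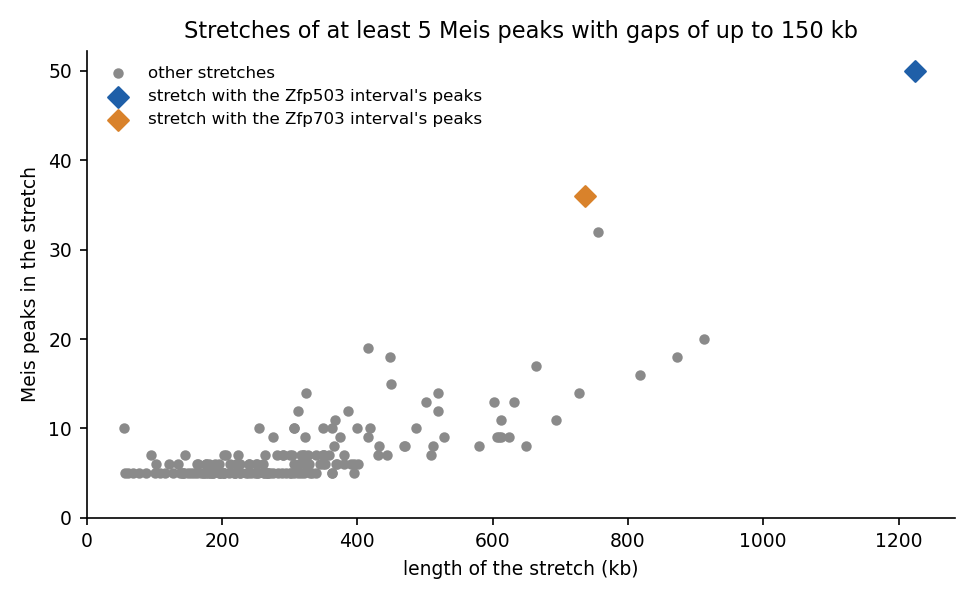
Number of Meis peaks in a stretch (vertical axis) against its length in kb (horizontal axis), for stretches of at least 5 Meis peaks with gaps of up to 150 kb. Each point is 1 stretch of the 1 Meis library; the Zfp503 stretch (50 peaks) and the Zfp703 stretch (36 peaks) lie above the others, the next of which has 32.

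Some of the strongest Meis peaks of the genome lay in these intervals. Of the 67 Meis members, 9 were among places 1 to 100 of the 5686 Meis peaks, 7 among places 1 to 50 and 4 among places 1 to 20. At Zfp503 12 of 50 Meis peaks (24.0%) and at Zfp703 5 of 17 (29.4%) belonged to the highest-scoring 10% of the list, which with ties at its edge is 10.3% of all Meis peaks. At or above the list's median score of 10.7 were 36 and 15, against 52% of all Meis peaks. The median score was 14.6 at Zfp503 (quartiles 10.1 and 17.5) and 14.5 at Zfp703 (quartiles 11.3 and 23.8). Weak peaks were present too, down to 8.56 and 8.96, close to the lowest score of the list, 8.51. These scores helped to choose the intervals, so nothing is read from their height.

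At Zfp503 the strongest Meis peak, at 22723043 to 22723213, had a score of 63.4 and place 6. A second strong peak, at 22723635 to 22723847, lay 613 bp from it with a score of 46.8 and place 17. Another, at 23468955 to 23469139, had a score of 47.2 and place 16 but lay 746 kb to the right. Next came peaks at 23396706 to 23396894 (score 36.5, place 47) and at 22813630 to 22813808 (score 36.4, place 49). Apart from the pair with centres 613 bp apart, these strong peaks lay at separate places in the left and middle parts of the interval. Between those places lay weak peaks and also other members of the highest-scoring 10%. The highest score in the last 629 kb of the interval was 26.6, at place 152. The other 7 members of the highest-scoring 10% had scores from 18.7 to 27.6.

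At Zfp703 the strongest Meis peak, at 27881020 to 27881202, had a score of 58.7 and place 8, and no other Meis peak lay within 22.7 kb of it. The peaks at 28119050 to 28119231 (score 36.9, place 43) and 28071867 to 28072022 (score 35.1, place 54) lay near the right end of the stretch. Peaks at 28024717 to 28024939 (score 30.4, place 89) and 27918876 to 27919082 (score 23.8, place 221) completed its members of the highest-scoring 10%. The 19 Meis peaks of the stretch left of the interval had scores in the same range. Their median was 13.8, 6 were in the highest-scoring 10%, and their strongest, at 27462243 to 27462455, had a score of 38.0 and place 36.

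**Figure D2:**
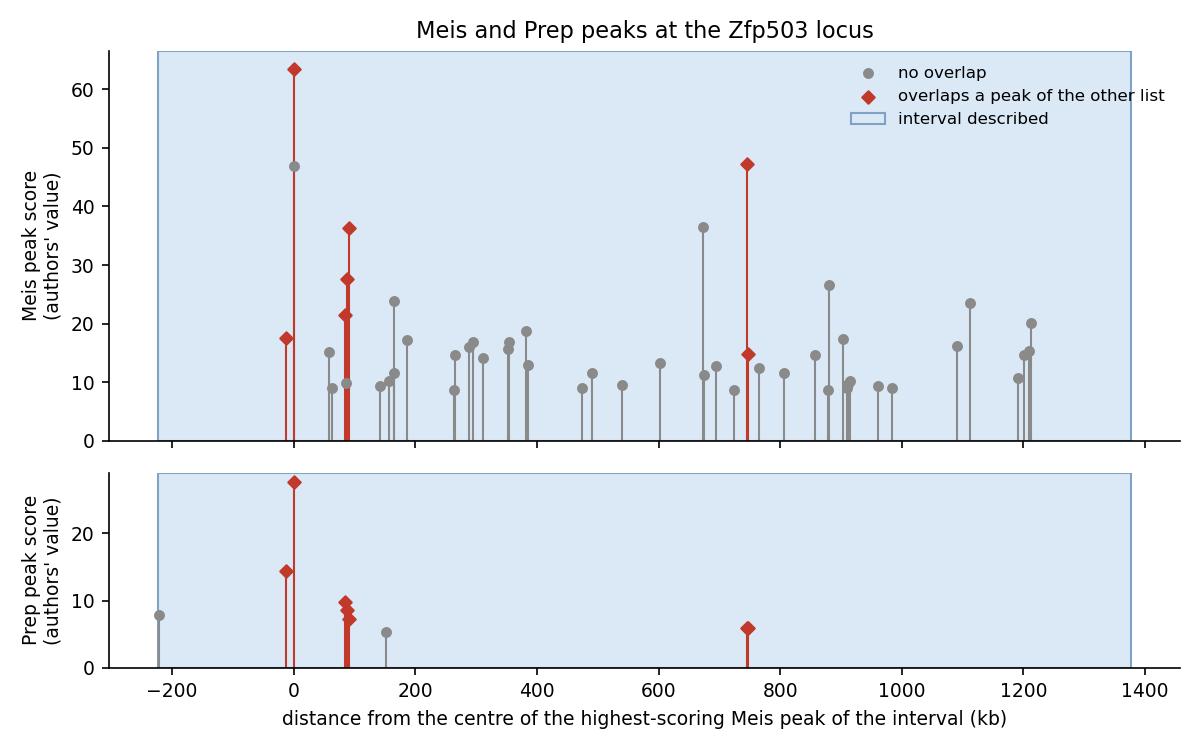
Score of each Meis peak (upper axis) and Prep peak (lower axis, its own scale) against distance in kb from the strongest Meis peak of the Zfp503 interval; each stem is 1 peak, and red diamonds mark peaks that overlap one of the other list. The 50 Meis peaks fill most of the shaded interval, whereas all 9 Prep peaks lie in its left part or near the Meis peak with a score of 47.2.

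**Figure D3:**
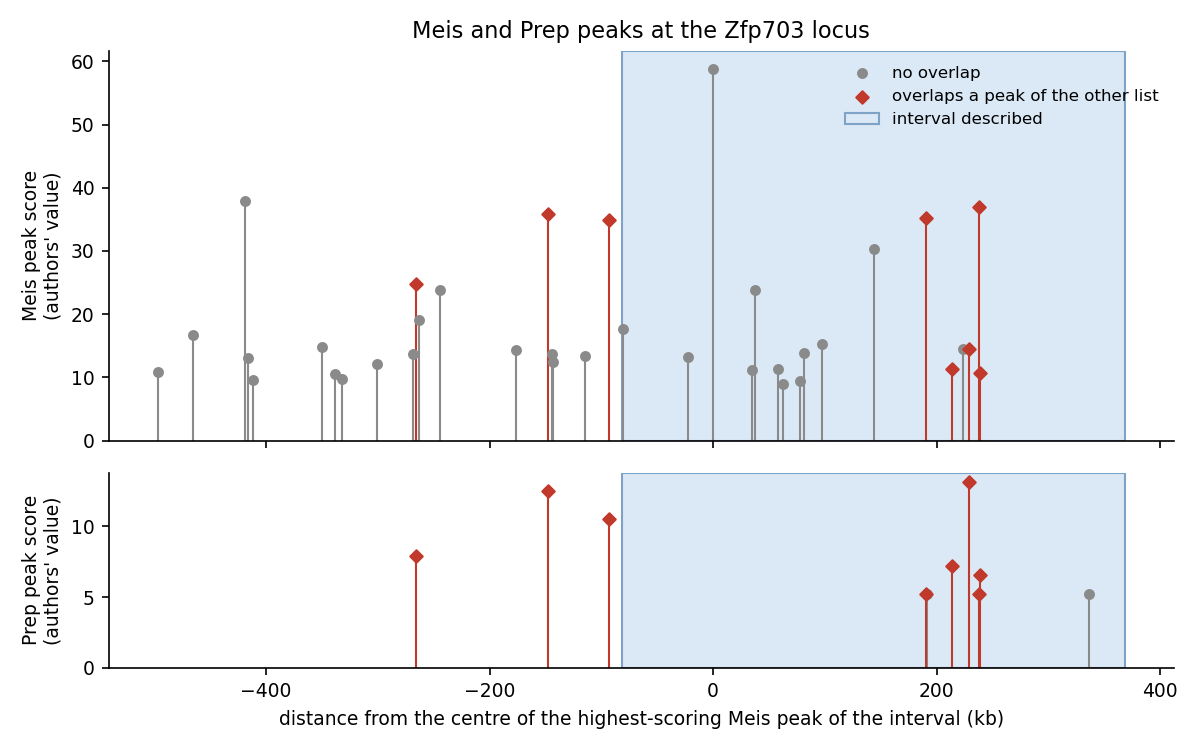
The same for Zfp703, with the Meis stretch left of the shaded interval included. The strongest Meis peak (score 58.7, at 0 kb) has no Prep peak near it, and 5 of the 6 rightmost Meis peaks overlap a Prep peak.

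Prep peaks at both loci were weak for their list and sat mostly on Meis peaks. Of the 16 Prep members 0 were in the highest-scoring 10% of the Prep list. At or above the Prep median score of 10.5 were 2 of 9 at Zfp503 and 1 of 7 at Zfp703, against 51.6% of all Prep peaks. At Zfp503 the Prep scores ran from 5.25 to 27.6 with a median of 7.88. At Zfp703 they ran from 5.25 to 13.1 with a median of 5.25. Prep peaks that overlap a Meis peak are low throughout the list, with a median of 7.88 for the 408 shared and 11.8 for the 2923 others, and 12 of the 408 in the highest-scoring 10%. The 7 shared Prep members of Zfp503 had a median of 8.54 and the 5 of Zfp703 one of 6.57, so low Prep scores are not shown to be particular to these loci. The value of 5.25 is shared by 490 Prep peaks of the list, all at place 2834, so these members cannot be ranked among themselves. The lowest score listed is 5.03, and weaker Prep signal at the other Meis members would not appear. The strongest Prep member, at 22723135 to 22723477, reached place 1040 of 3331.

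**Figure D4:**
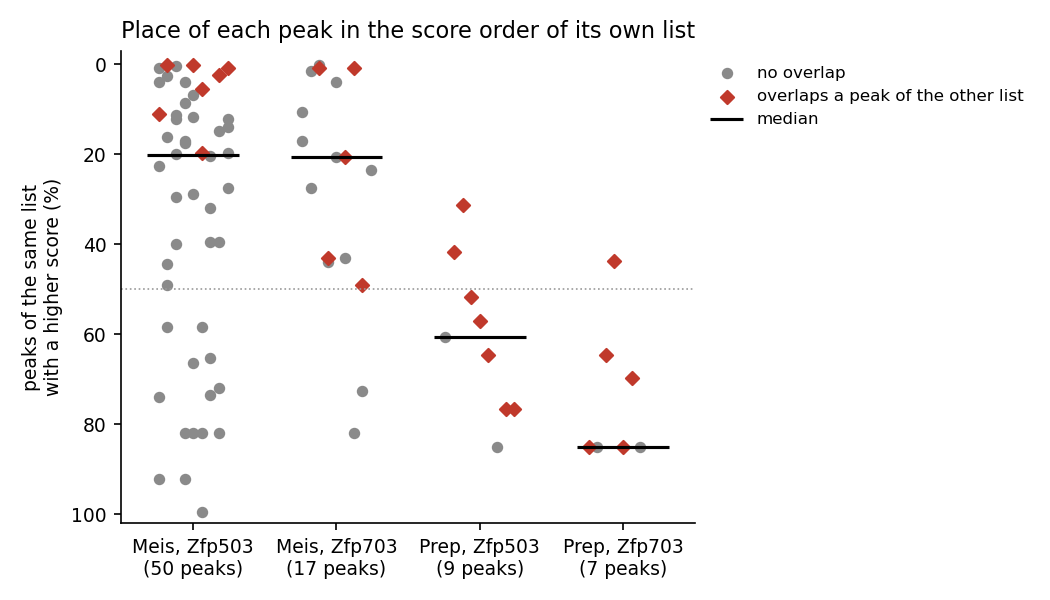
Share of peaks in the same list that score higher than each member (vertical axis, 0% at the top is the strongest; the dotted line is 50%), for the Meis and Prep members of each locus; points are peaks and bars are medians. The Meis medians lie at 20.1% and 20.6%, the Prep medians at 60.6% and 85.0%.

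A member counts as shared if it has 1 bp or more in common with a peak of the other list. Of the Meis members 7 of 50 at Zfp503 were shared (14%, 95% Wilson interval 6.95 to 26.2%) and 5 of 17 at Zfp703 (29.4%, 13.3 to 53.1%), against 7.16% of all Meis peaks. These Wilson intervals overlap and cover counting error only, neighbouring peaks are not independent, and the difference between the loci was not tested. Within the highest-scoring 10% of Meis peaks, 5 of 12 at Zfp503 and 2 of 5 at Zfp703 were shared, against 25.5% of that slice in the whole list. Of the Prep members 7 of 9 and 5 of 7 were shared, against 12.2% of all Prep peaks. Most Prep peaks here thus met a Meis peak, and most Meis peaks met none of Prep: 43 Meis peaks at Zfp503 and 12 at Zfp703 had no Prep partner.

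The 7 shared sites of Zfp503 formed separate clumps. In the first clump, the Meis peak at 22711135 to 22711382 (score 17.5, place 631) met a Prep peak at 22711069 to 22711286 (score 14.4, place 1388). The strongest Meis peak (63.4) met the strongest Prep member (27.6), but only at its side: they overlapped by 79 bp and their centres were 178 bp apart. That Prep peak lay between both strong Meis peaks of this site, and its centre was 435 bp from the second one, with which it did not overlap.

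A further 84.6 kb to the right, 3 Meis peaks within 5.97 kb each lay on a Prep peak. The first of them, at 22807840 to 22808039, had a Meis score of 21.5 and a Prep score of 9.85, with centres 4 bp apart. The second, at 22810564 to 22810746, had scores of 27.6 and 8.54 and centres 38 bp apart. The third, at 22813630 to 22813808, had scores of 36.4 and 7.22 and centres 53.5 bp apart. Along these neighbouring sites the Meis scores went up from left to right while the Prep scores went down. This order rests on 3 sites and was not tested, and their Prep scores are held by 93, 111 and 161 peaks of the list. It did not hold across the locus, where the strongest Meis peak met the strongest Prep member. A further Meis peak between them, at 22809002 to 22809168 with a score of 9.79, had no Prep partner.

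The remaining clump lay far to the right. The Meis peak scored 47.2 lay on a Prep peak scored 5.91, with centres 14 bp apart, and its neighbour at 23470499 to 23470712 (score 14.8) lay on another Prep peak of 5.91, with centres 73.5 bp apart. To the left of this clump a stretch of 594 kb between Prep peaks held 21 Meis peaks without a Prep partner, the strongest with a score of 36.5. To its right the last 629 kb of the interval held 17 more, the strongest with a score of 26.6, and 0 Prep peaks.

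At Zfp703 the shared sites were gathered at the right end. All 5 lay within 48.0 kb, from 28071867 to 28119834, where 5 of 6 Meis peaks were shared. Left of them the interval had 11 Meis peaks and 0 Prep peaks over 272 kb, and these included the strongest Meis peak of the locus, which was 92.8 kb from the nearest Prep peak. From left to right the shared Meis peaks had scores of 35.1, 11.3, 14.5, 36.9 and 10.7, and their Prep partners had scores of 5.25, 7.22, 13.1, 5.25 and 6.57. Both strong Meis peaks of this group thus lay on Prep peaks of 5.25. The highest Prep score of the locus lay on the Meis peak of 14.5, at place 1170 and above the list median of 10.7. Here 2 Meis peaks of equal score, 14.5, lay 5.14 kb apart: the one at 28109748 to 28109946 was shared and the one at 28104609 to 28104798 was not.

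In the wider Zfp703 stretch, 3 of the 19 Meis peaks left of the interval were shared as well. They were the peaks at 27614926 to 27615112, 27733240 to 27733445 and 27788223 to 27788396, with Meis scores of 24.8, 35.8 and 34.9 and Prep scores of 7.88, 12.5 and 10.5. Their centres lay 13.5, 18 and 3.5 bp from those of the Prep peaks, and these were all the Prep peaks there. Counted over whole stretches, 8 of 36 Meis peaks were shared at Zfp703 (22.2%) and 7 of 50 at Zfp503 (14%). Centres of shared pairs were a median of 53.5 bp apart at Zfp503 and 36.5 bp at Zfp703, against 28.5 bp over all 409 pairs.

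The Prep members without a Meis partner numbered 2 at each locus. At Zfp503 they lay at 22501739 to 22502051 (score 7.88), 182 kb from the nearest Meis peak, and at 22874813 to 22875137 (score 5.25), 5.20 kb from one. At Zfp703 the peak at 28217194 to 28217516 (score 5.25) lay 97.6 kb from the nearest Meis peak. The other, at 28072043 to 28072368 (score 5.25), had its centre 261 bp from a shared Meis peak and overlapped by 152 bp the Prep peak that meets it. Such overlaps within the Prep list were found for 67 pairs in all, and counting this pair as 1 peak would leave 6 Prep peaks at Zfp703.

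Meis peaks were close together at both loci. The nearest Meis peak was a median of 4.54 kb away at Zfp503 and 5.14 kb at Zfp703, against 78.1 kb in the whole list. A Meis neighbour within 10 kb was present for 32 of 50 (64.0%) and 11 of 17 (64.7%), against 13.8% of all Meis peaks. At Zfp503 the 32 formed 13 close groups of 2 to 4 peaks, and at Zfp703 the 11 formed 4 groups. The largest close groups at Zfp503 had 4 peaks each. One was that of the 3 shared sites, from 22807840 to 22813808, and the other, from 23626637 to 23637267, had 0 shared peaks and a top score of 17.3. At Zfp703 the largest had 5 peaks over 24.6 kb, from 28095188 to 28119834, with 4 of them shared. The other 3 groups of that locus had 2 peaks each and 0 shared. A Prep neighbour within 10 kb was present for 5 of 9 and 5 of 7 Prep members, against 17.1% of all Prep peaks. The intervals were chosen from these same peaks, and close spacing goes with the high density given above. Spacing was not tested apart from that density, which also holds for the peaks within 1 kb described next.

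Most tight Meis doublets of the loci lay at Zfp503. There 12 of 50 Meis peaks (24.0%) had another within 1 kb, against 2.53% of all Meis peaks and 2 of 17 at Zfp703. These were 6 doublets with centres 365 to 667 bp apart and 144 to 441 bp of DNA between the peaks, so they were called as separate peaks. Their members were often unequal. The doublet at 23396706 to 23397597 had scores of 36.5 and 11.1, and the one at 23602139 to 23602788 had 8.61 and 26.6. The doublet at 22887923 to 22888705 had 11.5 and 23.8, and the one at 22987418 to 22988176 had 8.56 and 14.6. In the strongest doublet both were high, at 63.4 and 46.8, and in the weakest, at 23633396 to 23633980, both were low, at 8.96 and 9.65. Of these 12 peaks 1 was shared, the strongest. The single doublet of Zfp703, at 28119050 to 28119834 with scores of 36.9 and 10.7 and centres 575 bp apart, had each of its peaks on a Prep peak of its own. How peaks close to each other divide the reads between them is not given in the sources used here, and its part in these scores was not tested.

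**Figure D5:**
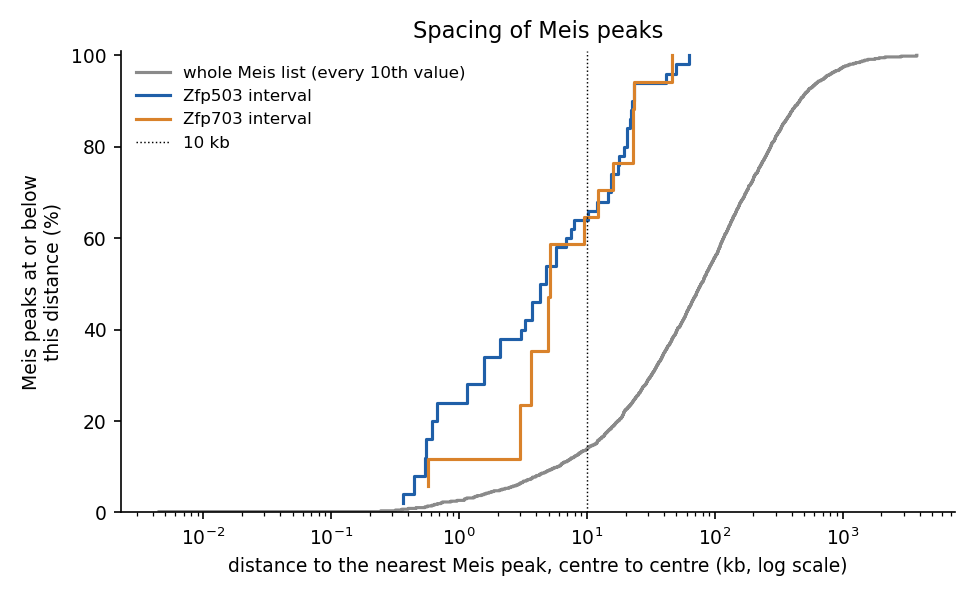
Cumulative share of Meis peaks (vertical axis) by distance to the nearest Meis peak, centre to centre (horizontal axis, kb, log scale), for each locus and for every 10th value of the sorted distances of the whole list. The lines of the loci meet near 64% at 10 kb, where the whole list is at 13.8%; below 1 kb the Zfp503 line is at 24.0%.

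At Zfp503 the median Meis score was 27.6 for the 7 shared peaks and 13.0 for the 43 others. At Zfp703 the medians were 14.5 for the 5 shared and 14.2 for the 12 others. Over the whole list they were 14.3 and 10.7. The ranges overlapped at both loci: shared peaks ran from 14.8 to 63.4 at Zfp503 and from 10.7 to 36.9 at Zfp703, and the others from 8.56 to 46.8 and from 8.96 to 58.7. Peaks were narrow throughout, with a median width of 203 bp at Zfp503 and 206 bp at Zfp703 for Meis, against 209 bp in the whole list. Prep members were wider, with medians of 269 bp and 321 bp against 244 bp in the whole Prep list. Shared Prep peaks are wider throughout that list, with a median of 268 bp against 239 bp for the others, and most Prep members were shared. The median of the shared Prep members was 261 bp at Zfp503, below 268 bp, and lay above it at Zfp703. Greater Prep width is therefore not shown to be particular to these loci, and it was not tested.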

How the data were processed

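The submitters' processing notes name BWA and the mm9 build. Each antibody library has its own peak list, whose peaks carry the name "pics", per the file headers and columns. For the caller's version and settings, the use of the inputs and any filter, the sources used here give nothing. The deposited unit is a score per peak, the authors' own value; positions are deposited as start and end. Starts were raised by 1, assuming BED counting. The input libraries were not analysed here.

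Members, intervals and rules were chosen with earlier results of these data known; the stretches were added after the data were examined. Peaks named are those of the highest-scoring 10%, of shared pairs, of the largest close groups and Prep-only members; others were named after their values were seen. Gaps and distances run between centres. Density over all chromosomes uses the span from the first to the last peak of either list (Wilson intervals for shares). The planned comparison of the member proteins was not run. The alternatives are given in the closing section. The procedures that find overlaps and close groups were checked on simulated lists with planted answers; this tests the procedures, not the results. Python 3.11.15, numpy 2.4.6, pandas 2.3.3 and scipy 1.17.1 were used.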

Additional observations from a re-analysis of the deposited data

How the results depend on the processing

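The counts and ratio given for the intervals and stretches, 11 results, were recomputed under alternative settings, not every setting for every result. Of the 44 values obtained, 37 stayed within 1.5 times the reported count or, for the density ratio, within its interval. The 7 that moved came from keeping only the highest-scoring 50% of each list. Prep peaks then numbered 2 at Zfp503 and 1 at Zfp703, and shared Meis peaks likewise 2 and 1. Meis peaks in close groups numbered 20 at Zfp503 and 7 at Zfp703, and the Zfp503 stretch held 30. This setting tests fewer peaks by construction. Other overlap rules, a fixed width of 200 bp, other gaps and interval edges moved by 10% of the length kept every count within 1.5 times. The merging of overlapping Prep peaks and the stretch settings were added after the data were examined. Read depth is unknown, so weak or missing peaks cannot be set against it. No paired analysis was possible because each group has 1 library and the results come from no test.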
